A study of Mus musculus with 3 samples.

Results

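Within each of 3 libraries of sorted mouse retinal horizontal cells, the 25% of cells with the highest Malat1 share (the Malat1-high group) were set against the 25% with the lowest (the Malat1-low group), to describe which transcripts went with a high share of this nuclear RNA. A barcode was taken as a horizontal cell when it had at least 1000 detected genes, at most 10% mitochondrial UMIs and a UMI of at least 2 of the 3 transcription factor genes Lhx1, Onecut1 and Onecut2. A UMI (unique molecular identifier) stands for 1 captured transcript. This rule held 15055 of the 20048 deposited barcodes, 7145 (P6), 3153 (P8) and 4757 (P11). The Malat1-high groups held 1786, 788 and 1189 of these cells at P6, P8 and P11, and the Malat1-low groups held the same numbers, so that 7526 cells entered the comparison.

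The retinas came from Cx57icre;Ai14 mice at postnatal day 6 (P6), 8 (P8) or 11 (P11), with 1 library per age and this genotype at every age. Cx57icre places Cre under the gene of connexin 57, a gap junction protein of horizontal cells, and Ai14 gives red fluorescence once Cre has acted. Papain-released cells were sorted and captured with 10x Genomics 3' chemistry, so that a sort gate and a single capture stand behind each library. The labels do not give the number or sex of the animals, every cell carries the driver and the reporter, and age and library cannot be told apart. Xist, an RNA of female cells, was found in both groups at P6 and P11 and in neither at P8. The sex of the cells thus differed between libraries along with age. Each library supplied its own Malat1-high and Malat1-low group, which makes 3 sums a side, and the p-values measure how evenly a difference recurred in 3 libraries of different ages.

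Malat1 is a long noncoding RNA that stays in the nucleus, where it gathers at the speckles that store splicing factors. Most messenger RNA of a neuron is spliced and lies in the cytoplasm, while unspliced transcripts with their introns lie in the nucleus, so the share of Malat1 in a droplet can depend on how much cytoplasm was captured with the nucleus as well as on how much Malat1 the cell makes. The counts cannot tell these apart. Malat1 also has an unusual end, which is not made by adding a poly(A) tail. RNase P cuts the primary transcript behind a run of A that is written in the genome, and that run folds into a triple helix that protects the RNA. The end is shown because the ranking rests on this RNA and 3' chemistry primes on runs of A. In the mm10 build the gene covers positions 5795690 to 5802672 of chromosome 19 on its minus strand, and the transcript Malat1-201 of the GENCODE vM21 annotation has 1 exon of 6983 bases. The stretch at chr19:5795948-5796039, read on the minus strand, has the run of 12 A in capitals.
Malat1 end: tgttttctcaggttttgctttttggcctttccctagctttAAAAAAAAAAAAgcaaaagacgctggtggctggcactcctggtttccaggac

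By construction the groups differed in Malat1, and its values are given as a description. The median cell held 3.11% of its UMIs as Malat1 in the Malat1-high group (P6), 3.35% (P8) and 3.72% (P11), against 0.658%, 0.231% and 0.451% in the Malat1-low group. The last cell inside the Malat1-high group had 2.63212% (P6), 2.46282% (P8) and 3.10245% (P11), and the next cell outside had 2.63202%, 2.46017% and 3.10211%. For the Malat1-low group the last cell inside had 1.1811%, 0.40398% and 0.89272%, and the next cell outside 1.18128%, 0.40417% and 0.89296%. The limits did not fall in gaps, with 595, 96 and 333 cells within 5% of the upper limit and 190, 73 and 107 within 5% of the lower one. Whether Malat1 formed classes was not tested. The upper tail was long, and the highest cell reached 14.5% (P6), 20.9% (P8) and 22.6% (P11).

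Depth and other signs of cell state moved with the ranking. Median UMIs per cell were 12693.5 in the Malat1-high and 8416 in the Malat1-low group (P6), 21854.5 and 19967 (P8), and 24387 and 20078 (P11). The Malat1-high groups were also more spread, with more shallow cells. Cells with fewer UMIs than their library's median divided by 3 made up 20.9% of the Malat1-high against 8.68% of the Malat1-low group at P6, 17.6% against 1.90% at P8, and 12.9% against 3.20% at P11. Cytosolic ribosomal protein genes gave a median of 3.72% of UMIs in the Malat1-high and 5.26% in the Malat1-low group (P6), 4.47% and 5.99% (P8), and 3.15% and 4.25% (P11). Mitochondrial genes, which the rule limited, gave 2.69% and 3.22%, 3.25% and 3.26%, and 4.04% and 4.77%. With the shallow cells left out, which was tried after the data had been seen, 4238 genes were higher and 4260 lower, against 4326 and 4370 with them in the comparison described next. With Malat1 groups taken within 10 equal classes of total UMIs, so that median depth was 12161.5 in the Malat1-high and 12159.5 in the Malat1-low group at P6, 3691 genes were higher and 4019 lower.

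**Figure D1:**
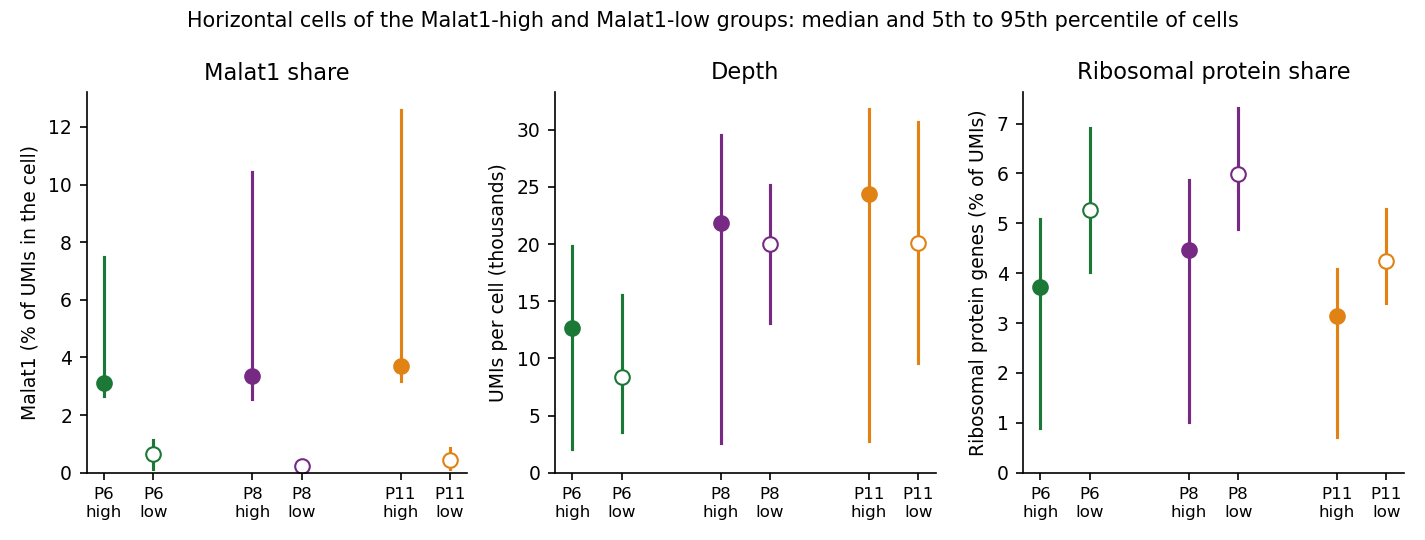
Malat1 share, UMIs per cell and ribosomal protein share of the cells in the Malat1-high (filled) and Malat1-low (open) group of each library. Circles are medians over cells and lines run from the 5th to the 95th percentile; Malat1 medians are 3.11 to 3.72% in the Malat1-high and 0.231 to 0.658% in the Malat1-low groups, while depth overlaps.

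The cells of both groups carried horizontal cell transcripts. Summed over the 5 markers that the rule did not use (Calb1, Slc4a3, Gja10, Tfap2b and Prox1), the level was 3973 counts per 1000000 UMIs (CPM) in the Malat1-high and 3595 CPM in the Malat1-low group at P6, 5365 CPM in Malat1-high and 4676 CPM in Malat1-low cells at P8, and 8468 CPM in Malat1-high and 7863 CPM in Malat1-low cells at P11. Of the genes of the rule, Lhx1 had a log2 fold change of 0.01, Onecut2 of 0.09 and Onecut1 of 0.50, given without a test. Markers of other retinal cells were low in sum. The 8 rod markers summed to 9.98 CPM in the Malat1-high and 8.52 CPM in the Malat1-low group at P6, 8.62 CPM in Malat1-high and 1.79 CPM in Malat1-low cells at P8, and 7.20 CPM in Malat1-high and 7.33 CPM in Malat1-low cells at P11, and the 7 cone markers stood between 0.768 and 1.61 CPM in all 6 sums. The 8 bipolar markers summed to 42.6 CPM in Malat1-high and 8.52 CPM in Malat1-low cells at P6, 10.8 CPM in Malat1-high and 2.49 CPM in Malat1-low cells at P8, and 4.75 CPM in Malat1-high and 5.65 CPM in Malat1-low cells at P11. Lrtm1 led them at P6, with 33.9 CPM in Malat1-high and 3.57 CPM in Malat1-low cells. Larger sums rested mostly on 1 gene each. At P6 the Müller list, led by Dbi, summed to 118 CPM in Malat1-high and 169 CPM in Malat1-low cells, and the ganglion cell list, led by Nefh, to 267 CPM in Malat1-high and 247 CPM in Malat1-low cells. The amacrine list, led by Pax6, summed to 253 CPM in Malat1-high and 222 CPM in Malat1-low cells at P6, and the pigment epithelium list, led by Mitf, to 94.0 CPM in Malat1-high and 49.0 CPM in Malat1-low cells. Microglia markers stood between 24.0 and 37.8 CPM, progenitor markers, led by Hmgb2, between 15.2 and 32.8, endothelial markers between 6.17 and 11.7, pericyte markers between 5.98 and 27.2, astrocyte markers between 0.445 and 8.04, and erythroid markers between 0.128 and 4.54. The rod gene Gnat1 was at 0 UMIs in 3 of the 6 sums, the amacrine gene Tfap2c at 0 in 5 and the astrocyte gene Gfap at 0 in 5. The part of other cells in the results was not tested.

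Most genes that could be tested differed between the groups, in both directions about equally. The Malat1-high sums held 19585560, 14093708 and 25071541 UMIs without Malat1 at P6, P8 and P11, against 16433386, 15596049 and 23780100 in the Malat1-low sums. Other genes entered the ranking through total UMIs alone, as the denominator of the Malat1 share. Of 13553 genes tested with edgeR's quasi-likelihood test (library as a block, Benjamini-Hochberg adjusted p under 0.05), 4326 (31.9%) rose and 4370 (32.2%) fell in Malat1-high cells, which is 64.2% in all. With counts set against total UMIs without Malat1 in place of TMM scaling, the median of all genes moved to 0.19 on the log2 scale and the calls to 5399 higher and 2863 lower, so that changes are relative to the scaling. The differences ran the same way in all 3 libraries for 8629 of the 8696 called genes. They were unequal in size, since 1018 genes rose at least 2-fold but only 111 fell as much. Because so many genes passed, a share of members called near 32% in a direction is that of any genes.

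Genes that rose were mostly long, and genes that fell mostly short. With the tested genes in 5 equal groups by genomic span (start to end of the gene, introns included), the longest group, of median 141 kb, had 1988 of 2710 genes higher and 126 lower, with a median log2 fold change of 0.59. The next group, at 48.6 kb, had 1257 higher and 381 lower (median 0.23), and the middle group, at 24.4 kb, 588 and 883 (median -0.05). The 11.9 kb group had 302 higher and 1349 lower (median -0.30), and the shortest group, at 4.03 kb, 191 and 1631 (median -0.51). The longest group minus the shortest thus came to 1.10, and to 1.09 (P6), 1.28 (P8) and 0.99 (P11) (SD over libraries 0.15). Across genes, span and log2 fold change had a Spearman rho of 0.58 over 13550 genes, and of 0.80 over the 4176 genes with at least 50 CPM in the higher Malat1 group. The genes share the same 6 sums and are no independent replicates.

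**Figure D2:**
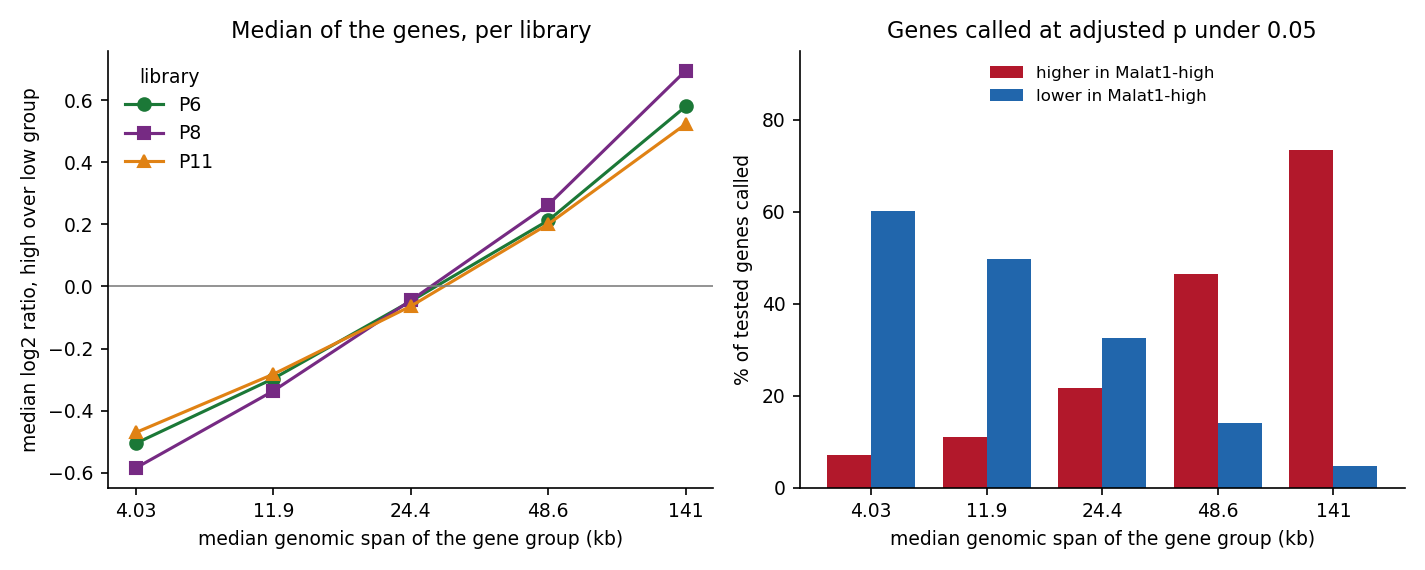
Left, median log2 ratio of the Malat1-high over the Malat1-low group in 5 equal groups of tested genes by genomic span (x axis, median span in kb), 1 line per library. Right, percent of the genes of each group called higher or lower at adjusted p under 0.05; lower calls prevail at 4.03 kb (1631 of 2710) and higher calls at 141 kb (1988 of 2710).

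The same change shows in how the UMIs were divided. Genes of the longest span group took 31.45% of the UMIs of all tested genes in the Malat1-high group and 19.2% in the Malat1-low group (P6), 21.1% and 11.2% (P8), and 26.7% and 15.9% (P11). Genes of the shortest span group took 25.2% and 34.8% (P6), 32.2% and 41.55% (P8), and 27.2% and 35.9% (P11). In each library the Malat1-high group thus had the larger share from long genes and the smaller share from short ones. Among protein-coding genes, exons covered a median of 60.0% of the span in the shortest span group and 5.07% in the longest, so that span in this comparison is mostly intron. Grouped by exon length instead, protein-coding genes had a median log2 fold change of -0.56 at 1.81 kb of exon and 0.46 at 10.4 kb. Protein-coding genes with 1 exon, which have no intron, numbered 265, of which 24 rose and 124 fell (median -0.33).

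Cells of intermediate Malat1 rank lay between the extremes. Relative to the Malat1-low group, the longest span group had a median log2 ratio of 0.27 in the second 25% of cells, 0.42 in the third and 0.59 in the Malat1-high group at P6, of 0.29, 0.46 and 0.68 at P8, and of 0.24, 0.39 and 0.56 at P11. The shortest span group had -0.22, -0.34 and -0.49 at P6, -0.21, -0.37 and -0.60 at P8, and -0.17, -0.27 and -0.44 at P11. Of the called genes with at least 50 CPM in their higher Malat1 group, 1005 of 1335 higher ones were ordered over all 4 ranks in every library, and 1822 of 2211 lower ones. Of all called genes, low ones included, 2078 of 4326 higher ones (48.0%) and 2504 of 4370 lower ones (57.3%) were so ordered.

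**Figure D3:**
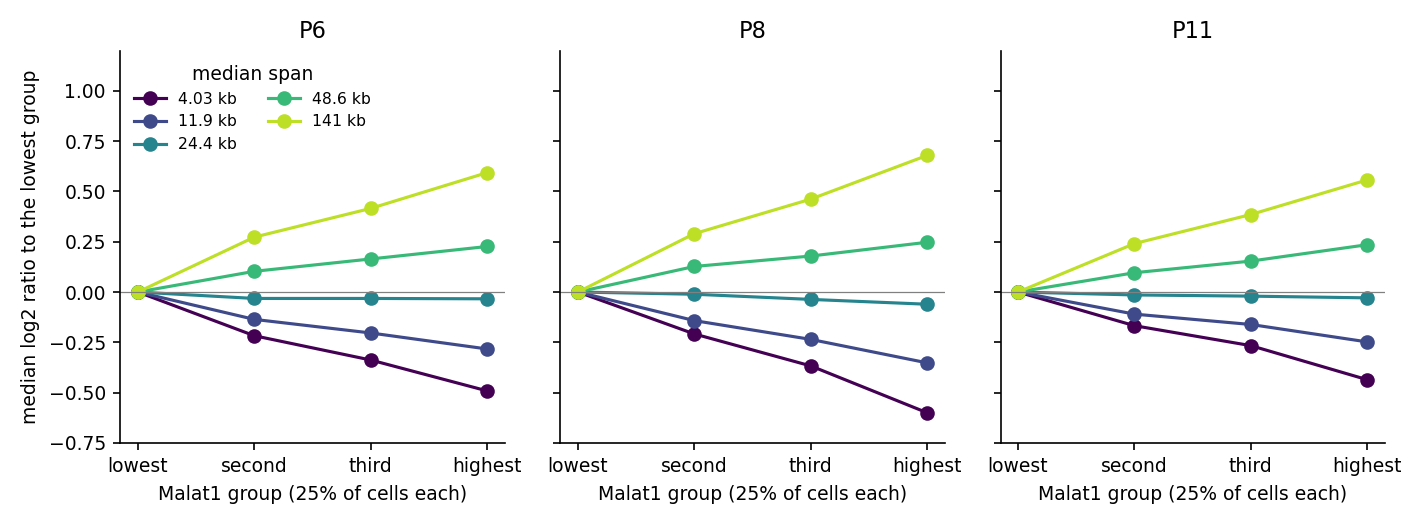
Median log2 ratio to the cells of lowest Malat1 (y axis) over the cells in 4 equal groups from lowest to highest Malat1 (x axis), for 5 groups of tested genes by genomic span and for each library. Long genes (141 kb) reach 0.59, 0.68 and 0.56 at the highest Malat1 and short genes (4.03 kb) -0.49, -0.60 and -0.44 at P6, P8 and P11.

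Long noncoding RNAs were higher more often than lower. Of 1522 tested, 611 rose and 203 fell, with a median log2 fold change of 0.36 beside -0.002 for all tested genes. Annotated sense intronic RNAs, which lie inside an intron of another gene on its strand, had 32 of 56 higher and 2 lower (median 0.84), antisense RNAs 298 of 652 higher and 77 lower (median 0.49), and lincRNAs 172 of 456 and 52 (median 0.27). RNAs that start from a bidirectional promoter had 14 of 96 higher and 27 lower (median -0.18). In the shortest span group noncoding RNAs had a median of -0.12 against -0.58 for protein-coding genes, and in the longest span group 1.06 against 0.57. Whether intron reads were counted, and on which strand, is not given in the sources used here, so counts of genes that overlap others or run antisense to them are uncertain. The size of the difference between long and short genes can also depend on that setting, which was not tested.

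In the list of nuclear noncoding RNAs 14 of 21 rose and 2 fell (median 0.63). Of all tested genes 31.9% rose and 32.2% fell, and of all long noncoding RNAs 40.1% and 13.3%. The list had a median span of 62.9 kb, and of the span group at 48.6 kb 46.4% rose and 14.1% fell. Kcnq1ot1, the imprinted RNA that silences its neighbours in cis, had 150.1, 94.9 and 119 CPM in the Malat1-high groups of P6, P8 and P11, against 67.0, 12.7 and 32.3 CPM in the Malat1-low groups (log2 fold change 1.86, SE 0.215, edgeR adjusted p 2.01e-05). The groups did not overlap, and the largest ratio was at P8. Lncpint stood at 20.9, 23.3 and 57.4 CPM in Malat1-high and 10.5, 8.78 and 19.4 CPM in Malat1-low groups (log2 fold change 1.35). Meg3, an imprinted RNA of the Dlk1-Dio3 locus, had 3212, 1486 and 1182 CPM in Malat1-high against 2428, 621 and 748 CPM in Malat1-low groups (log2 fold change 0.77), higher in each library. Snhg14, the imprinted host transcript that runs antisense into Ube3a, rose by 1.08 and Snhg11 by 1.12 on the log2 scale. Neat1, the neighbour of Malat1 in the genome and the RNA that builds paraspeckles, rose by 1.15 but was close to 1 CPM, with 1.13, 1.11 and 2.45 CPM in Malat1-high against 0.823, 0.154 and 1.07 CPM in Malat1-low groups, and without the P11 library it did not pass (1.08). Xist, the RNA that coats the inactive X chromosome, differed little, with 590.7 CPM in the Malat1-high and 514.05 CPM in the Malat1-low group at P6, 0 and 0 at P8, and 345.8 and 276.6 CPM at P11 (log2 fold change 0.26, and 0.20 without a call when P11 was left out). Peg13 and Mir670hg fell, by 0.32 and by 0.27 on the log2 scale. Neither passed when scaled to total UMIs (-0.13 and -0.11), nor did Mir670hg without P8 (-0.17), without P11 (-0.25) or under most other alternatives, DESeq2 among them (-0.32).

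Of the noncoding RNAs with at least 50 CPM, the highest fold change was that of Gm12082 (2.06), with 84.0, 37.8 and 61.4 CPM in Malat1-high and 29.7, 4.85 and 12.9 CPM in Malat1-low groups. A330076H08Rik followed with 2.04, from 305, 252 and 244 CPM in Malat1-high against 130.3, 28.7 and 63.2 CPM in Malat1-low groups. It lies on the minus strand of chromosome 7 (mm10, 61930137 to 61982358), beside A230057D06Rik on the same strand (61704519 to 61928690), which rose by 1.65. Gm45459 rose by 1.93 and Gm4258 by 1.47. These are provisional symbols with no role given here. In the list of host transcripts of small nucleolar RNAs, whose introns carry those RNAs, 0 of 13 were higher and 7 lower (median -0.36). The host list had a median span of 2.93 kb. Of the shortest span group 60.2% fell, and 22.4% of its long noncoding RNAs. That list leaves out Snhg14 and Snhg11, hosts by name that were listed with the nuclear noncoding RNAs and rose. Snhg20 had 61.5, 118 and 129.6 CPM in Malat1-high against 94.8, 243 and 215 CPM in Malat1-low groups (log2 fold change -0.80).

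The gene with the highest fold change, among those with a mean of at least 50 CPM in the higher Malat1 group and no provisional symbol, was Atg4a, a protease gene of autophagy. It had 102, 27.4 and 54.9 CPM in the Malat1-high groups of P6, P8 and P11, against 13.5, 7.01 and 10.4 CPM in the Malat1-low groups (log2 fold change 2.51, SE 0.135, edgeR adjusted p 4.18e-06). Its ratio was largest at P6 (log2 ratio 2.92), then at P11 (2.40) and P8 (1.97), whereas the other 11 leading genes had log2 ratios of 1.16 to 1.33 at P6, 2.48 to 2.90 at P8 and 1.62 to 1.96 at P11. Nrg1, the ligand gene neuregulin 1 of ErbB receptors, had 873, 529 and 1530.4 CPM in Malat1-high against 347, 72.8 and 394 CPM in Malat1-low groups (log2 fold change 2.03). Hs6st3, an enzyme gene of heparan sulfate sulfation, had 2969.6, 1581 and 2970.1 CPM in Malat1-high against 1241, 240.4 and 913 CPM in Malat1-low groups (1.88). For both, every Malat1-high value stood above the Malat1-low value of its library, and the ratio was largest at P8.

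The remaining genes of the leading 12 were also mostly long. Ccser1 rose by 1.94 on the log2 scale, Dmd, the dystrophin gene, by 1.83, and Sntg1, which encodes a syntrophin of the dystrophin complex, by 1.83. Adarb2, a relative of the RNA editing enzymes with no known editing activity, rose by 1.79, Xkr4 by 1.78, Egfem1 by 1.78, the kainate receptor gene Grik2 by 1.84 and the synaptic adhesion gene Lrrtm4 by 1.78. Kcnq1ot1, described above, was also among the 12. Their spans ran from 93.1 kb (Kcnq1ot1) to 2257 kb (Dmd).

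The 12 genes with the lowest fold change were all short, with spans from 3.87 kb (Tuba1a) to 14.4 kb (Itm2c). Asna1, an ATPase gene that delivers tail-anchored proteins to the endoplasmic reticulum, had 49.9, 45.7 and 47.3 CPM in the Malat1-high groups against 91.6, 123 and 104 CPM in the Malat1-low groups (log2 fold change -1.14, SE 0.093, edgeR adjusted p 4.32e-06). Mdh2, the malate dehydrogenase gene of mitochondria, had 232, 277 and 250.1 CPM in Malat1-high and 423, 655 and 481 CPM in Malat1-low groups (log2 fold change -1.01). The groups overlapped for neither gene. Adrm1, a ubiquitin receptor gene of the proteasome, had a log2 fold change of -1.06, Cnih2, a cornichon partner gene of AMPA receptors, of -1.04, Vps28 of the ESCRT-I complex of -1.02 and Mrpl12 of the mitochondrial ribosome of -1.01. Rogdi, Itm2c, Nudt14 and the ubiquitin ligase gene Rnf126 completed the 12 together with Tuba1a and Vamp2, which are described with their lists.

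The ankyrins, which the series title names, were higher in Malat1-high cells where they could be called. Ankyrins tie membrane proteins to the spectrin skeleton. Ank2, the ankyrin-B gene, had 2196, 1969 and 2639.6 CPM in the Malat1-high groups of P6, P8 and P11, against 1349, 1129 and 1584 CPM in the Malat1-low groups (log2 fold change 0.75, SE 0.060, edgeR adjusted p 4.27e-06). All 3 Malat1-high values stood above all 3 Malat1-low values. Ank3, the ankyrin-G gene of axon initial segments, had 624, 287 and 351 CPM in Malat1-high against 368, 141 and 197 CPM in Malat1-low groups (log2 fold change 0.87, SE 0.071, edgeR adjusted p 4.32e-06), higher in each library, although the P6 Malat1-low value exceeded both later Malat1-high values. Ank1 had 4.20, 1.38 and 1.43 CPM in Malat1-high against 2.53, 0.847 and 1.25 CPM in Malat1-low groups and did not pass (log2 fold change 0.55, SE 0.233, edgeR adjusted p 0.058), though it did when scaled to total UMIs (0.72), among cells with at most 5% mitochondrial UMIs (0.61) and among cells with a UMI of all 3 genes of the rule (0.78). Of 16 tested genes of ankyrins, spectrins, adducins and protein 4.1, 12 rose and 0 fell (median 0.54). The list had a median span of 126 kb. Of all genes of the longest span group 73.4% rose, and 82.5% of those with at least 50 CPM. Sptbn4, the spectrin gene that partners ankyrin-G at initial segments, rose by 0.89, Sptan1 by 0.57, Sptbn1 by 0.52 and Epb41l5 by 0.96 on the log2 scale. Ank2 spans 578 kb and Ank3 629 kb. The longest span group, with a median log2 fold change of 0.59, had a median span of only 141 kb. Some genes of like span were picked by no fixed rule, with their values known. Adarb2 (566 kb) rose by 1.79, Kcnq5 (563.5 kb) by 1.51 and Robo2 (520 kb) by 1.19. Unc5d (573 kb) rose by 1.07, Sema6d (578 kb) by 0.71 and Tenm3 (616 kb) by 0.67. Dscam (580 kb), under 3 CPM in every sum, had -1.52. Whether the ankyrins differ from genes of like span was not tested.

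Within cells of like Malat1 rank, Ank3 was lower at P8 than at P6. As a log2 ratio, P8 over P6 came to -1.12 for Ank3 and -0.16 for Ank2 in the Malat1-high groups, and -1.39 and -0.26 in the Malat1-low groups. P11 over P6 came to -0.83 for Ank3 and 0.27 for Ank2 in the Malat1-high groups, and -0.91 and 0.23 in the Malat1-low groups. The median P8 over P6 ratio of the longest span group was -0.44 in the Malat1-high and -0.55 in the Malat1-low groups, and that of the shortest span group 0.29 and 0.39. Each age is 1 library, so these are values with no test.

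**Figure D4:**
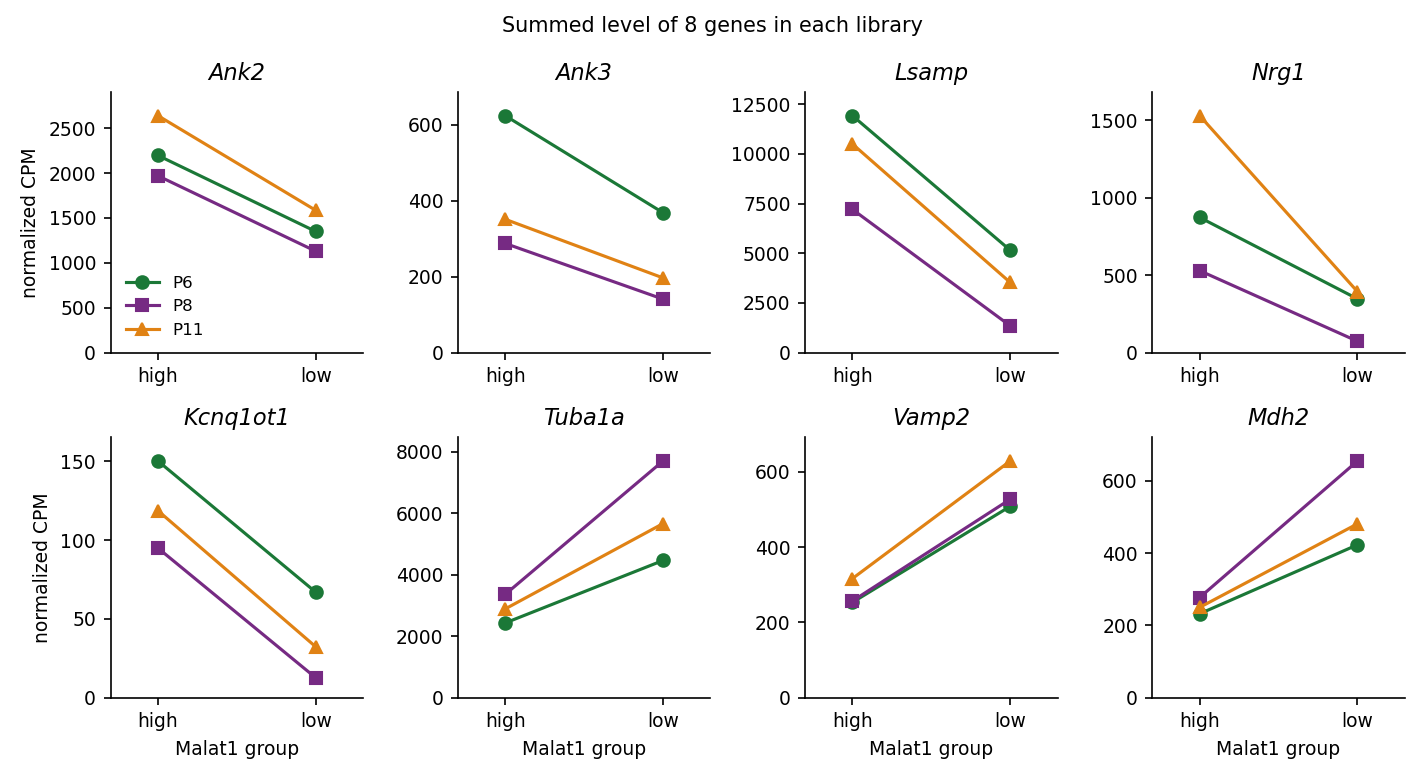
Normalized CPM (y axis, from 0) of 8 genes in the summed cells of the Malat1-high and Malat1-low group (x axis), with 1 line per library. Ank2, Ank3, Lsamp, Nrg1 and Kcnq1ot1 are higher and Tuba1a, Vamp2 and Mdh2 lower in the Malat1-high group of each of the 3 libraries.

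Genes of cell contact and guidance were higher in Malat1-high cells. In the immunoglobulin-family adhesion and guidance list 24 of 30 rose and 2 fell (median 0.63), beside 31.9% higher and 32.2% lower of all tested genes. Its median span was 435 kb, and of the longest span group 73.4% rose and 4.65% fell, with a median of 0.59. Of that group's genes with at least 50 CPM 82.5% rose and 7.18% fell. Lsamp, a membrane-anchored adhesion gene of neurons, had 11923, 7205 and 10498 CPM in the Malat1-high groups of P6, P8 and P11, against 5149, 1343 and 3527 CPM in the Malat1-low groups (log2 fold change 1.73, SE 0.169, edgeR adjusted p 7.47e-06). Every Malat1-high value was above every Malat1-low value. Robo1, a receptor gene for Slit guidance cues, rose by 1.64. The 2 that fell, Dscam and Chl1, were under 3 CPM in every sum, had log2 ratios above 0 at P8 (0.26 and 0.85), and lost their calls without P11 (-0.37 and -0.80), Chl1 also without P6 (-0.86). Of 36 synaptic adhesion genes 23 rose and 2 fell (median 0.48, median span 144 kb). Lrrtm1, an adhesion gene of postsynaptic sites, rose by 1.85, with at most 1.94 CPM in the Malat1-low groups. Lrrc4b and the neurexin gene Nrxn2 fell, by 0.28 and by 0.17 on the log2 scale, although Nrxn2 turned to 0.031 when scaled to total UMIs and to 0.07 among genes with a mean of at least 50 CPM. Without P6 (-0.18) or P11 (-0.13) Nrxn2 did not pass, nor did Lrrc4b without P11 (-0.29). Of 15 cadherin genes 11 rose and 0 fell (median 0.79, median span 392 kb), with Pcdh9 at 1.64 and Cdh12 at 1.54.

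Receptor and channel genes were likewise higher. Of 23 glutamate receptor genes and partners 18 rose and 0 fell (median 0.91, the highest of the 27 lists). Median spans were 378 kb for this list and 364 kb for the voltage-gated channel genes. Of the longest span group 73.4% rose, and 82.5% of its genes with at least 50 CPM. Grik2 had 602, 286 and 278 CPM in Malat1-high against 247, 47.6 and 82.7 CPM in Malat1-low groups. Of 27 voltage-gated channel genes 23 rose and 0 fell (median 0.86), among them the potassium channel genes Kcnh7 (1.58) and Kcnq5 (1.51). The GABA list was less one-sided, with 8 of 16 higher and 1 lower (median 0.32, median span 114.9 kb). The receptor subunit gene Gabra2 had 365, 223 and 198 CPM in Malat1-high and 199.7, 88.5 and 103 CPM in Malat1-low groups (log2 fold change 1.04), and Gabrb2 rose by 1.27. The gene that fell was Slc32a1, the vesicular transporter that loads GABA, which spans 4.98 kb, with 219, 235 and 209 CPM in Malat1-high against 306, 336 and 284 CPM in Malat1-low groups.

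Of 32 tested genes of vesicle release 12 were higher and 12 lower (37.5% each way), near the 31.9% higher and 32.2% lower of all tested genes. Their median of -0.06 ran from -0.10 to 0.18 over the alternatives. Members that rose included the active zone scaffold genes Erc2 by 1.44, Rims2 by 1.40, Rims1 by 1.28 and Pclo by 1.01. Snap25, a SNARE gene of the cell membrane, and Syt1, the calcium sensor synaptotagmin, rose by 0.43 and 0.46. Members that fell included Vamp2, Rab3a and Napa. Rims1, Pclo, Snap25, Syt1 and Napa were picked after their values were seen, so no split by function can be read from them. Vamp2, the vesicle SNARE synaptobrevin, had 253, 257 and 316 CPM in the Malat1-high groups against 508, 527 and 628 CPM in the Malat1-low groups (log2 fold change -1.01, SE 0.062, edgeR adjusted p 4.18e-06). The groups did not overlap. Rab3a, a small GTPase gene of vesicles, had a log2 fold change of -0.88, and Napa, which encodes the alpha-SNAP that helps take SNARE complexes apart, of -0.85. Erc2 and Rims2 span 856 and 486 kb, and Vamp2 3.90 kb.

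The lists of cytoskeleton genes ran in opposite directions, as short and long genes did. All 23 tested tubulin, actin and thymosin genes fell (median -0.77, the lowest of the lists). Their median span was 4.39 kb. Of the shortest span group 60.2% fell, and 93.3% of its genes with at least 50 CPM. Tuba1a, an alpha-tubulin gene of young neurons, had 2434, 3363 and 2890.1 CPM in Malat1-high against 4464, 7697 and 5662 CPM in Malat1-low groups (log2 fold change -1.01, SE 0.070, edgeR adjusted p 4.18e-06), with no overlap, and Tubb4b had a log2 fold change of -0.96. Of 23 microtubule motor and associated protein genes 16 rose and 0 fell (median 0.40, median span 101 kb). The longest span group had 73.4% higher, with a median of 0.59, and 82.5% higher among its genes with at least 50 CPM. Dst and Macf1, the giant linker genes of actin and microtubules, rose by 0.81 and 0.79.

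Genes of protein synthesis fell almost without exception. Of 81 cytosolic ribosomal protein genes 0 rose and 79 fell (median -0.60), of 78 mitochondrial ribosomal protein genes 0 and 75 (median -0.67), and of 25 translation factor genes 0 and 22 (median -0.56). Rpsa had 574, 611 and 396 CPM in Malat1-high against 939, 1249.7 and 708 CPM in Malat1-low groups (log2 fold change -0.86), and the initiation factor gene Eif3f 171, 138 and 119.8 CPM in Malat1-high against 278, 335 and 230.3 CPM in Malat1-low groups (-0.97). Eif3h fell as well (-0.86) with a span of 79.0 kb. Of 36 proteasome subunit genes 0 rose and 34 fell (median -0.64), with Psmb3 at -0.93. Median spans were 3.29 kb (cytosolic ribosomal), 7.90 kb (mitochondrial ribosomal), 10.7 kb (translation factors) and 12.8 kb (proteasome). Of genes with at least 50 CPM, 93.3% of the shortest span group and 86.2% of the next fell. Without that limit the shares were 60.2% and 49.8%.

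Genes of energy metabolism fell too. Of 85 nuclear genes of the respiratory chain 0 rose and 81 fell (median -0.71), with Ndufv2 at -0.98 and Ndufs3 at -0.98, both of complex I. Of 16 glycolysis genes 1 rose and 12 fell (median -0.62). Median spans were 7.28 kb in the respiratory chain list and 17.15 kb in the glycolysis list. Of the shortest span group 60.2% of all genes fell, and 93.3% of those with at least 50 CPM. For the span group at 11.9 kb these shares were 49.8% and 86.2%, and for that at 24.4 kb 32.6% and 64.6%. Gapdh had 1298, 2272 and 3029.8 CPM in the Malat1-high groups of P6, P8 and P11, against 2423, 4945 and 5661 CPM in the Malat1-low groups (log2 fold change -0.97, SE 0.066, edgeR adjusted p 4.18e-06), lower in each library. The gene that rose was the phosphofructokinase gene Pfkp (0.28), which spans 69.0 kb.

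The 13 messenger RNAs made inside mitochondria did not share a direction, and the rule limited their total. Of these 5 rose and 3 fell (median 0.08). mt-Cytb had 3501, 5159 and 4978 CPM in Malat1-high against 4909, 8089 and 7733 CPM in Malat1-low groups (log2 fold change -0.59), and mt-Co1 had -0.32 (-0.13 and not called when scaled to total UMIs). Over the alternatives the median of the 13 ran from -0.04 to 0.32. mt-Nd6, the protein gene on the other strand of the mitochondrial genome, had 15.1, 26.6 and 27.4 CPM in Malat1-high against 5.94, 6.54 and 6.90 CPM in Malat1-low groups (log2 fold change 1.81, SE 0.131, edgeR adjusted p 4.18e-06). Its groups did not overlap. mt-Nd4l rose by 0.51, and mt-Nd5, which lies on the strand opposite mt-Nd6, by 0.32.

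Genes of nuclear proteins were mostly higher. Of 37 chromatin regulator genes 32 rose and 1 fell (median 0.56). Their median span was 109 kb. Of the longest span group 73.4% rose, and 82.5% of its genes with at least 50 CPM. The histone deacetylase gene Hdac9 had 336, 189.5 and 314 CPM in Malat1-high and 163, 52.8 and 127 CPM in Malat1-low groups (log2 fold change 1.38), and Kmt2c, a histone methyltransferase gene, rose by 0.96. The exception was Smarca4, an ATPase gene of the SWI/SNF remodeller, with 1153, 1814 and 2022 CPM in Malat1-high against 1524, 2879.8 and 2913 CPM in Malat1-low groups (log2 fold change -0.53, span 88.1 kb). Of 42 splicing and speckle genes 27 rose and 4 fell (median 0.28). Their median span was 18.6 kb, and of the span group at 24.4 kb 21.7% rose and 32.6% fell. Of that group's genes with at least 50 CPM 12.7% rose and 64.6% fell. Srek1 stood at 0.85, and Srsf3 at -0.46 and Nono at -0.34 were among those that fell. Nono, at -0.14, did not pass when scaled to total UMIs. Pnn, the gene of the speckle protein pinin, rose most in this list although it spans 7.12 kb. It had 252, 261 and 242 CPM in the Malat1-high groups of P6, P8 and P11, against 137, 100.2 and 98.4 CPM in the Malat1-low groups (log2 fold change 1.18, SE 0.093, edgeR adjusted p 4.18e-06). The groups did not overlap.

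Few short genes rose. Of 1082 tested genes under 10 kb with at least 50 CPM in the higher Malat1 group, 12 rose in every library and 1009 fell. The 12, named after their values were seen, were Pnn, Crebzf, Hnrnpa2b1, Pnmal2, Gm42372, Tspyl4, Mcl1, Klhl9, Hnrnpa0 and the mitochondrial genes mt-Nd4l, mt-Nd5 and mt-Nd1. Hnrnpa2b1 and Hnrnpa0 encode RNA-binding proteins of the nucleus, and their log2 fold changes were 0.26 and 0.17. After Pnn and mt-Nd4l the next was Crebzf, at 0.38. Of 847 genes of at least 100 kb, 734 rose in every library and 45 fell. Those that fell most, also named after their values were seen, included Chchd6 of the mitochondrial inner membrane (-0.70), the complex I genes Ndufs4 (-0.65) and Ndufaf2 (-0.60, an assembly factor), Bri3 (-0.63) and Snrpn (-0.60). Rtn1, a reticulon gene of the endoplasmic reticulum, was abundant, with 3006, 3352 and 2548 CPM in Malat1-high against 4275, 4715 and 3446 CPM in Malat1-low groups. Its log2 fold change was -0.48 with a span of 197 kb.

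Of 20 tested heat shock and unfolded protein response genes 0 rose and 14 fell (median -0.30), beside 31.9% higher and 32.2% lower of all tested genes. The list had a median span of 7.26 kb. Of the shortest span group 60.2% fell, and 93.3% of its genes with at least 50 CPM. Hspa8, a constitutive chaperone gene, had 1159, 1558 and 1708 CPM in Malat1-high against 1925, 2800.2 and 2683 CPM in Malat1-low groups (log2 fold change -0.74), while Hspb1, at -2.19, was under 3 CPM in every sum. Of 16 immediate early genes, which follow activity and dissociation, 0 rose and 6 fell (median -0.43), among them Jund (-0.62), and 16 further members of that list were too low to test. Of 13 genes of p53 and apoptosis 1 rose, Apaf1 at 0.69, and 5 fell, among them Phlda3 at -0.84 (median -0.20). The shares that fell in these last lists, 37.5% of the immediate early and 38.5% of the p53 and apoptosis genes, were near that of all tested genes.

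Markers of horizontal cells divided. Of 18 tested 2 rose and 10 fell (median -0.27). Their median span was 12.6 kb. Of the span group at 11.9 kb 49.8% fell, and 86.2% of its genes with at least 50 CPM. The transcription factor gene Prox1 had 983, 1165 and 1501 CPM in Malat1-high against 706, 870.5 and 1169 CPM in Malat1-low groups (log2 fold change 0.42), and Slc4a3, an anion exchanger gene, rose by 0.22 (0.14 without P6, not called). Npy, the neuropeptide Y gene, had 4947, 8129 and 3451 CPM in Malat1-high against 8898, 13269 and 5989 CPM in Malat1-low groups (log2 fold change -0.78), the septin gene Sept4 -0.72, and Calb1, the calbindin gene, -0.29. Genes that had been picked on these libraries for being higher at P11 had 3 of 15 higher and 9 lower (median -0.29), and those picked for being higher at P6 had 6 of 15 higher and 8 lower (median -0.27). That choice on the same libraries makes neither list independent evidence on age. In the P6 list the long genes Alk, a receptor kinase gene, and Filip1l rose, by 1.32 and 1.05, while Ly6h and Nt5dc2, of 16.0 and 8.07 kb, had -0.90 and -0.87. In the P11 list Rskr rose by 0.53 and the metallothionein gene Mt1 had -0.75.

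**Figure D5:**
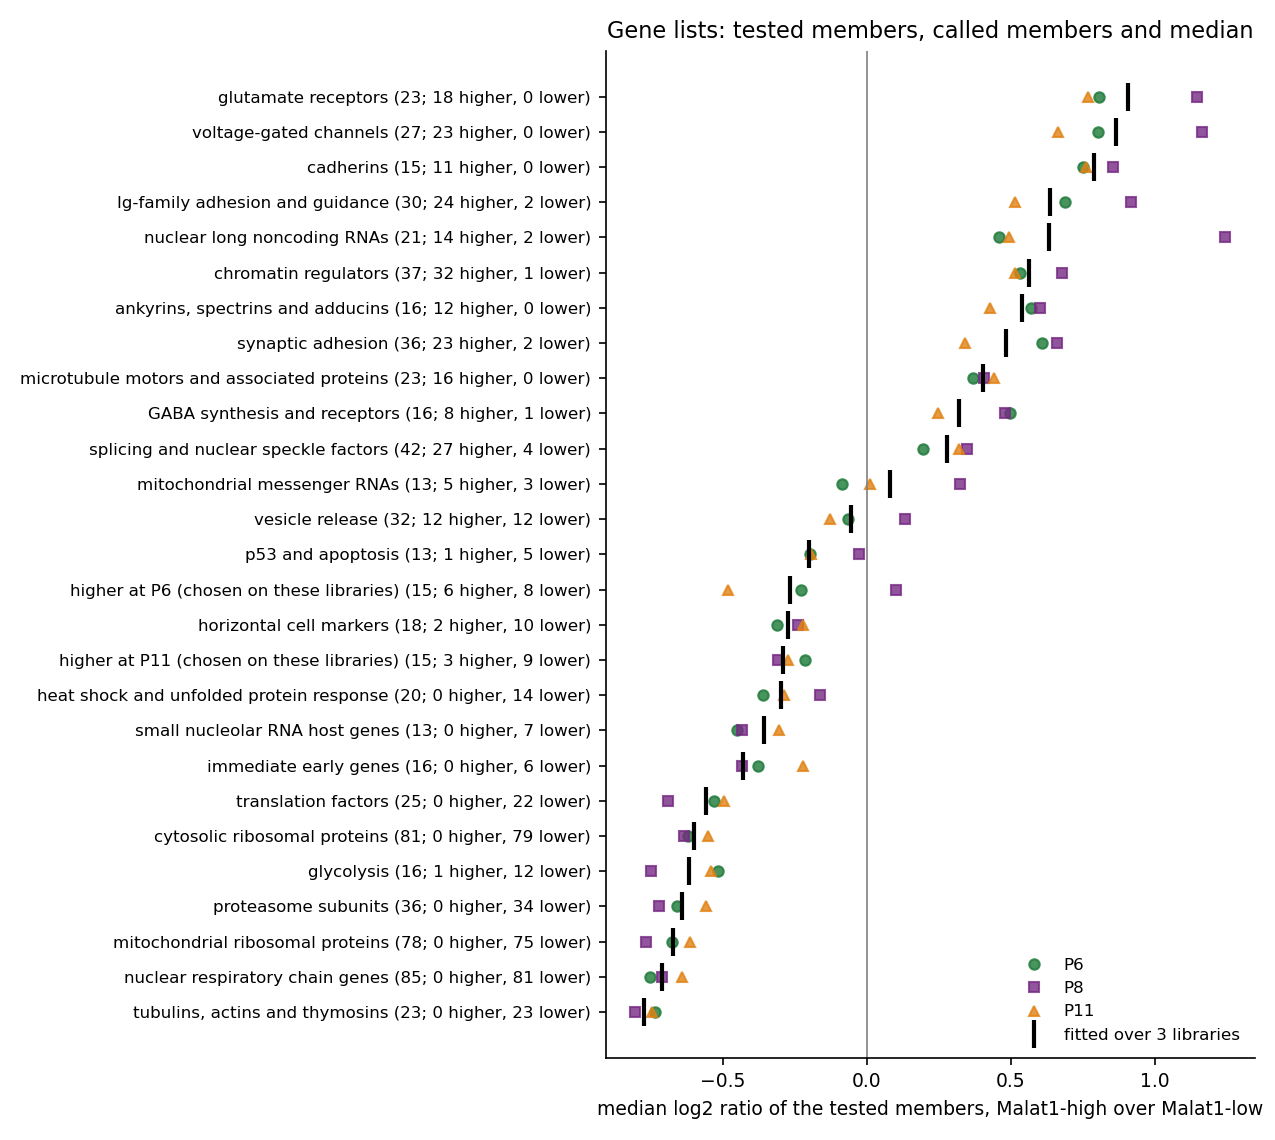
Median log2 ratio of the tested members of 27 gene lists, Malat1-high over Malat1-low group (x axis), with coloured points per library and a black bar for the fit over the 3 libraries. Labels give the number of tested members and of members called higher and lower; medians run from -0.77 for tubulins, actins and thymosins to 0.91 for glutamate receptors.

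The contrast ran the same way in the 3 libraries for most lists, and the medians of the 5 highest lists were largest at P8. The glutamate receptor list had medians of 0.80 (P6), 1.15 (P8) and 0.77 (P11), and the nuclear noncoding RNA list 0.46, 1.24 and 0.49. Among 4668 genes with at least 50 CPM in a sum, 0 had log2 ratios at least 0.5 above 0 in one library and at least 0.5 below 0 in another. The median Malat1 share at P8 was 3.35% in the Malat1-high and 0.231% in the Malat1-low group. With 1 library per age no test of a difference between ages was possible.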

How the data were processed

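Single-cell RNA was measured in 3 libraries, 1 each at P6, P8 and P11. The authors deposited raw UMI counts per gene and barcode, with Cell Ranger 7.1.0 and mm10 named by the submitters' processing notes. The sources used here do not give the annotation release or whether introns were counted. GENCODE vM21 on mm10, used for spans, exons and biotypes, matched 32235 of 32285 features and gave the Malat1 sequence.

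Cells were ranked within each library by Malat1 share of total UMIs, and raw counts were summed per library and Malat1 group of 25% of the cells. Malat1 was left out of counts and library sizes. edgeR 4.0.16 (R 4.3.3) filtered genes with filterByExpr, scaled with TMM and fitted a quasi-likelihood model with library as a block (glmQLFit, glmQLFTest), with Benjamini-Hochberg adjustment over 13553 genes. The SE of a log2 fold change is its size divided by the root of the F statistic. CPM are TMM-normalized counts per 1000000 UMIs, except for sums of cell type markers, which are set against all UMIs. The script was tested on simulated data in which few genes changed, up and down alike. That test cannot vouch for the scaling here, where most genes differed. The sums held 14093708 to 25071541 UMIs, so precision is set mainly by the 3 libraries for abundant genes. For genes of a few CPM counting adds to the uncertainty, most of all near 1 CPM.

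Named genes had adjusted p under 0.05, the same sign in every library and at least 50 CPM on average in the higher group. They were the 12 highest and 12 lowest named protein-coding or noncoding genes and the 6 highest long noncoding RNAs, to which up to 2 called members each way of every list and Neat1, Meg3, Xist, Ank1, Ank2 and Ank3 were added. Other list members (Snhg11, Snhg14, Sptan1, Sptbn1, Robo2, Sema6d, Unc5d, Tenm3, Rims1, Pclo, Snap25, Syt1, Napa, mt-Nd5, Calb1) and the genes that run against the span trend were chosen after their values were seen. A gene that the rule names is not reported here. Genes of the rule, mitochondrial and ribosomal protein genes, the 78 features that share a symbol (Aldoa of the glycolysis list among them) and provisional symbols were left out of the first of these. The members and the 27 lists were chosen with earlier results of these data known. The libraries shared 13 barcodes (P6 and P8), 15 (P6 and P11) and 8 (P8 and P11), of which 0, 5 and 1 were in the Malat1 groups of both. Doublets were kept in the main comparison, since the caller's own limit (Scrublet in scanpy 1.11.5) marked 0%, 0.274% and 0.0202% of cells; leaving out the highest scores was 1 of 20 alternatives, with DESeq2 1.42.0 among the others.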

Additional observations from a re-analysis of the deposited data

Results flagged for a closer look

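Medians of 3 lists had opposite signs in different libraries, and the difference was not tested, since each age is 1 library. For vesicle release the median log2 ratio of Malat1-high over Malat1-low cells was -0.0647 at P6, 0.1314 at P8 and -0.1295 at P11. For the genes picked on these libraries as higher at P6 it was -0.2271 at P6, 0.1014 at P8 and -0.4817 at P11. For the mitochondrial messenger RNAs it was -0.0879 at P6, 0.3225 at P8 and 0.0119 at P11. Among the vesicle release genes 12 of 32 were higher and 12 lower over the 3 libraries, and of the genes picked as higher at P6 6 of 15 were higher and 8 lower.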

How the results depend on the processing

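The numbers of genes higher and lower were 4326 and 4370, and the span gradient was 1.10. Scaling to total UMIs without Malat1 gave 5399 higher and 2863 lower, so that 65.35% of calls were higher against 49.75%. Among genes with a mean of at least 50 CPM there were 1589 higher and 1587 lower of 3775 tested, with a gradient of 1.30; fewer genes were tested. Without the replicate block (library) edgeR called 0 higher and 0 lower, with 3867 genes at an unadjusted p under 0.05, while DESeq2 with the block called 3528 and 3791; each library gives both groups, so the pairing comes from the design. Thinning cells to 3000 UMIs, with cells of fewer UMIs left out, gave 3094 and 3186 calls of 11025 tested, and a gradient of 1.26. It kept 1530 Malat1-high and 1730 Malat1-low cells at P6, 732 and 780 at P8, and 1122 and 1180 at P11. The gradient was 0.79 with no filter on low counts, 1.73 between the extreme 10% of cells, 0.64 between the upper and lower 50% and 0.81 with groups taken within 10 equal classes of total UMIs, where 3691 genes were higher and 4019 lower. Leaving out 1 library gave 3565 to 4107 higher, 3656 to 4279 lower and gradients of 1.03 to 1.16. Nrxn2 turned to 0.031 when scaled to total UMIs and to 0.07 at 50 CPM. The causes were not tested. Of 538 list medians under alternatives 417 moved by less than the SD over libraries and 121 by more; those of vesicle release (-0.10 to 0.18) and of mitochondrial messenger RNAs (-0.04 to 0.32) turned sign. Of 2018 values of named genes 1852 kept their direction and side of the threshold, 161 no longer passed (most without the block), 3 newly passed and 2 turned. Leaving out P11 ended the calls of Mir670hg (-0.25), Lrrc4b (-0.29), Nrxn2 (-0.13), Dscam (-0.37), Chl1 (-0.80), Neat1 (1.08) and Xist (0.20), leaving out P6 those of Slc4a3 (0.14), Nrxn2 (-0.18) and Chl1 (-0.86), and leaving out P8 that of Mir670hg (-0.17). Every called gene shared between the main comparison and another setting had the same direction in both. Genes near 1 CPM (Neat1, Hspb1, Dscam, Chl1, Ank1) are limited by depth.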
